A study of Homo sapiens with 14 samples.

Results

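Replication-dependent histone mRNAs were followed through polysome gradients of MDA-MB-231 cells, a triple-negative human breast cancer line. Members were the gene symbols of the count table that start with HIST1H to HIST4H, 90 of 58434 symbols, and those with at least 10 counts in 2 or more of the 14 libraries are reported. This left 37 genes, made up of 2 linker histone H1 genes of 8, 9 H2A genes of 23, 15 H2B genes of 26, 6 H3 genes of 17 and 5 H4 genes of 16. Of the 53 symbols below the rule, 35 had no read in any library and the highest single count was 10. Only 9 members had at least 10 counts in every library, so most values below rest on few reads.

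The study silenced DAP5, a translation initiation factor related to eIF4G and encoded by EIF4G2, and compared mRNA in polysomes with total mRNA. A pair of stable lines carried a doxycycline-inducible shRNA, either non-silencing (shNSi) or directed at DAP5 (shDAP5), and both were given doxycycline at 1 µg/ml for 6 days. For 2 cultures of each line, libraries were made from total mRNA, from light polysomes (mRNA with few ribosomes) and from heavy polysomes (mRNA with more ribosomes). A moderate pool, taken between light and heavy, was sequenced for shNSi alone. The shDAP5 light libraries were light by title, although their description code was the one used for the shNSi moderate pool, and the title of the shDAP5 total libraries adds the word polysome. By the study's methods the lines were selected with puromycin and sorted on the red fluorescent reporter of the shRNA vector, and whether a line was 1 clone is not given in the sources used here.

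Histone mRNAs of this class are made during S phase, when new DNA has to be packed into nucleosomes of H2A, H2B, H3 and H4 and sealed by linker H1. Their genes mostly lack introns, and the mRNA ends in a conserved stem-loop bound by SLBP in place of a poly(A) tail. Some of the genes are also known to give longer transcripts that read past the stem-loop and end in poly(A), as in cells that are not dividing. A library made by poly(A) selection keeps the second kind and loses the first. Whether these libraries were poly(A) selected is not given in the sources used here, and neither are the strand setting or the handling of reads with several matches.

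The stem-loop was searched by its name, as the histone 3′ stem-loop of 16 bases, on the sense strand of GENCODE v29 transcripts (build GRCh38), and 15 of the 37 members held it. The sites of 6 members with many reads are shown because one kind of transcript ends at this element and the other runs on past it. Capitals mark the stem-loop and lower case the 5 bases on either side.
HIST1H2AC: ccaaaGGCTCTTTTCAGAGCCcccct
HIST1H2BC: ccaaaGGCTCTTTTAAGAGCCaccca
HIST1H2BD: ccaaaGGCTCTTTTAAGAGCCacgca
HIST2H2BE: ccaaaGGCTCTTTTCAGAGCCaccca
HIST1H3H: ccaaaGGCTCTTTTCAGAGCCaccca
HIST1H4H: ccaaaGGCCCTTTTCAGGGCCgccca

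The same letters occurred in 3 of 19598 other genes, or 0.0153%. Of the 22 members without a match, 15 have annotated transcripts that end at the stop codon, so the annotation there does not reach the position of the element. The site began 31 bases after the stop codon in HIST1H3H, 36 bases in HIST1H2BC and HIST1H2BD, 41 in HIST1H4H, 43 in HIST1H2AC and 56 in HIST2H2BE. In 12 members an annotated transcript runs more than 50 bases past the stem-loop, and 8 of these have AATAAA or ATTAAA in the last 50 bases. Among the 6 shown, the transcript ran on for up to 1128 bases in HIST1H2AC, 769 in HIST1H3H, 1655 in HIST1H4H and 1729 in HIST2H2BE. In HIST1H2BC it ran on for 116 bases, with no such signal found. In HIST1H2BD it ran on for 39 bases, under the limit of 50, and its end was not searched for a signal.

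Of the members, 28 are on chromosome 6, 8 on chromosome 1 and 1, HIST4H4, on chromosome 12. By GENCODE v29 (GRCh38), HIST1H1C is at chr6:26055787-26056428 on the minus strand, HIST1H2AC at chr6:26124145-26139116 on the plus strand, HIST1H2BK at chr6:27146418-27146798 on the minus strand and HIST2H2BE at chr1:149884459-149886652 on the minus strand. The coding length of the 33 protein-coding members was 309 to 657 bases with a median of 384, against a median of 1290 over 19359 genes. The other 4 members are pseudogenes. Near-identical copies are common among these genes. In 7 members more than 50% of the 50-base windows also occur in another gene, among them HIST1H2BK (74.1%) and HIST1H2AJ (83.7%, shared with HIST1H2AI), and their counts are uncertain for that reason. Exons of 9 members overlap another gene on either strand.

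Library totals were 25899838 to 30795910 counts. Levels are given as normalized CPM, counts divided by the library total after TMM scaling and multiplied to a common size, and they are not corrected for gene length. TMM factors were 0.703 and 0.763 in the shNSi heavy libraries and lay above these in the others. The levels use factors from all 14 libraries, while each comparison between the lines was scaled on its own libraries. Ratios of the levels can therefore differ from the fitted log2 change. EIF4G2 had 1391 and 1358 CPM in total mRNA of the shNSi cultures and 525 and 730 in the shDAP5 cultures, a log2 change of −1.11 (standard error 0.18, adjusted p = 0.0172, edgeR quasi-likelihood test with Benjamini-Hochberg adjustment). Of the markers of the line, VIM was at 797 CPM or more in every library, PGR at 0, ESR1 at no more than 16 counts and CDH1 at no more than 8 counts. PTPRC, a leukocyte marker, had no more than 7 counts.

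Among total mRNA, light and heavy polysomes, histone mRNA was highest in light and lowest in heavy polysomes. Summed over the 37 members, the shNSi cultures had 112.4 and 80.0 CPM in total mRNA, 218.2 and 99.7 in light polysomes and 45.2 and 29.8 in heavy polysomes. The shDAP5 cultures had 129.7 and 82.8 CPM in total mRNA, 233.7 and 160.6 in light polysomes and 69.9 and 56.3 in heavy polysomes. The order light, total, heavy held in all 4 cultures, and the heavy value was 0.207 and 0.299 of the light value in the shNSi cultures and 0.299 and 0.351 in the shDAP5 cultures. By gene, 25 of 37 members were highest in light polysomes in every culture among these 3 libraries, where 24.5% of all genes tested were, and 19 were lowest in heavy polysomes in every culture, where 16.4% were. In all 4 cultures 33 members had less in heavy than in light polysomes, where 32.9% of all genes did.

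The 6 members known to give polyadenylated transcripts (HIST1H1C, HIST1H2AC, HIST1H2BC, HIST1H2BD, HIST1H2BK and HIST2H2BE) held 67.2% to 82.5% of the histone reads of a library. Their share was 82.2% and 78.9% in total mRNA of shNSi cultures and 79.1% and 74.9% in shDAP5 cultures. In light and heavy polysomes of the shNSi cultures it was 69.1% to 82.5%, and in those of the shDAP5 cultures 67.2% to 79.6%. By culture, the heavy share was 82.5% and 75.7% in shNSi and 77.5% and 67.2% in shDAP5 cultures. It was above that of total mRNA in shNSi culture 1 and below it in the other cultures. The light share was 82% and 69.1% in shNSi cultures, below total mRNA, and 79.6% and 76.1% in shDAP5 cultures, above it. These differences were not tested. In bulk libraries fewer cells in S phase and less histone mRNA per cell cannot be told apart.

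**Figure D1:**
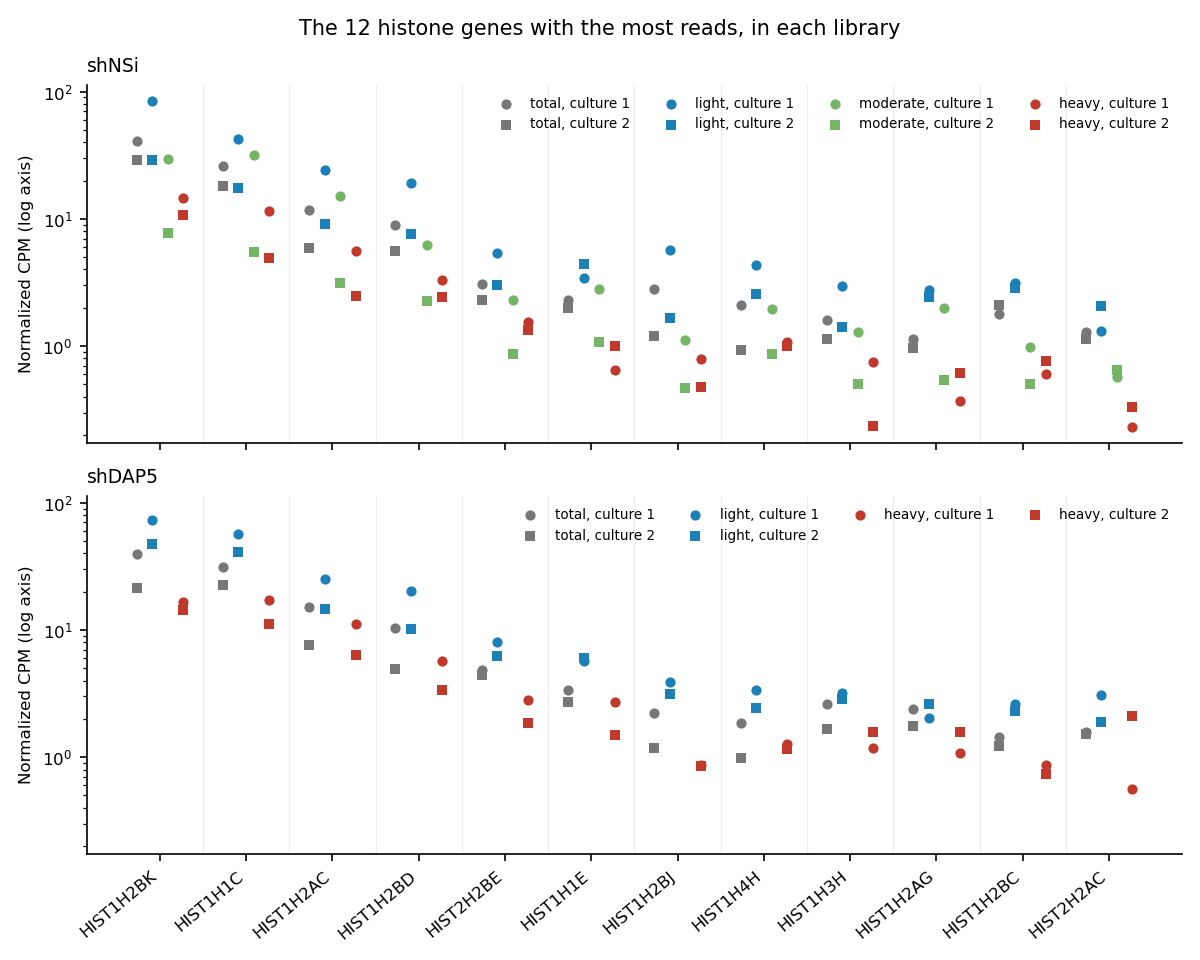
Normalized CPM (log axis) of the 12 members with the most reads in each library of the shNSi cultures (top) and shDAP5 cultures (bottom). Colours mark the RNA pool and the marker shape the culture, and in both lines the light values lie above the heavy values of the same culture for all genes but HIST2H2AC in shDAP5 culture 2.

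Between heavy and light polysomes of the shNSi cultures, 31 of 36 members tested were lower in heavy polysomes and 0 were higher (edgeR quasi-likelihood test with a term for each culture, adjusted p under 0.05). Of all genes tested, 30.5% were lower, 34.7% higher and 65.2% called in either direction. Without TMM scaling 34 members and 44.8% of all genes were lower, and 24.3% of all genes higher. The median log2 change of the members was −2.25 against −0.03 over all genes, and −2.19 without 3 members that had no read in either shNSi heavy library. A member of few reads could enter this test through the light libraries, where it was high. All 9 members with at least 10 counts in every library, which did not depend on that, were lower.

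The linker histone HIST1H1C had 42.5 and 17.4 CPM in light polysomes of the shNSi cultures and 11.5 and 4.88 in heavy polysomes. Its log2 change was −1.86 (standard error 0.32, adjusted p = 4.52e-05, edgeR quasi-likelihood test). HIST1H1E, the other linker histone reported, had 3.42 and 4.45 CPM in light and 0.653 and 0.995 in heavy polysomes, a log2 change of −2.26 (standard error 0.42, adjusted p = 8.55e-05, same test). Both linker genes thus had heavy values below both light values.

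All 8 H2A genes tested were lower in heavy than in light polysomes of the shNSi cultures. HIST1H2AC had 24.1 and 9.05 CPM in light and 5.60 and 2.46 in heavy polysomes, with a log2 change of −2.00 (standard error 0.29, adjusted p = 5.37e-06, edgeR quasi-likelihood test). HIST1H2AJ had 25 and 22 counts in light polysomes and 0 in both heavy libraries. With 3 counts per library as the floor, its level in light polysomes was at least 5.69-fold higher than in heavy polysomes.

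Of 15 H2B genes, 12 were lower in heavy polysomes. HIST1H2BK had 84.7 and 29 CPM in light and 14.7 and 10.7 in heavy polysomes of the shNSi cultures, a log2 change of −1.98 (standard error 0.31, adjusted p = 1.74e-05, edgeR quasi-likelihood test). The light cultures differed from each other more than the heavy cultures, but the groups did not overlap. HIST1H2BD changed by −2.11, HIST1H2BJ by −2.41, HIST1H2BC by −2.12 and HIST2H2BE by −1.51, with standard errors of 0.28 to 0.38. HIST1H2BM and the pseudogene HIST2H2BC had no read in the shNSi heavy libraries, and their light level was at least 1.82-fold and 2.41-fold higher at the same floor.

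Among H3 genes 4 of 6 and among H4 genes 5 of 5 were lower in heavy polysomes of the shNSi cultures. HIST1H3B had 1.73 and 2.11 CPM in light and 0.280 and 0.426 in heavy polysomes (log2 change −2.43, standard error 0.48). HIST1H4H had 4.30 and 2.56 CPM in light and 1.07 and 0.995 in heavy polysomes (log2 change −1.69, standard error 0.36). The median change was −2.06 for H1, −2.36 for H2A, −2.12 for H2B, −2.20 for H3 and −2.14 for H4. Without the members at 0 the medians were −2.35 for H2A and −2.11 for H2B.

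The 12 members with an annotated transcript past the stem-loop had a median of −2.11, and 11 of them were lower. The other 24 tested had a median of −2.31, and 20 were lower. The 6 known polyadenylated members had a median of −1.99 and the 30 others −2.33, or −2.27 without the 3 at 0. The difference between these classes was not tested, as members are not replicates.

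Both pools were then compared with total mRNA. In heavy polysomes of the shNSi cultures 16 of 36 members were lower than in total mRNA and 0 higher, where 14.3% of all genes were lower, 26.5% higher and 40.8% either, with a median log2 change of −1.37 against 0.11. Without TMM scaling 20 members and 29.9% of all genes were lower, and 7.16% of all genes higher. All 6 known polyadenylated members were among the 16. In light polysomes 6 of 36 members were higher than in total mRNA and 0 lower, where 6.47% of all genes were higher, 13.8% lower and 20.2% either, with a median of 0.87 against 0.09. These were HIST1H2AC, HIST1H2AG, HIST1H2AJ, HIST1H2BD, HIST1H4A and HIST1H4H. HIST1H4A, with 0 and 4 counts in total mRNA and 11 and 17 in light polysomes, had the largest change of these (2.88, standard error 0.88), on few reads. Such a member could enter the test through the light libraries, where it was high. With an offset for coding length, described below, 2 of 32 members were lower in heavy polysomes and 0 higher in light polysomes. In those fits 3004 and 2576 of 12747 genes were called in either direction. Without the terms for each culture (no replicate block), 4 members and 7.64% of all genes were lower in heavy polysomes, and 0 members and 0.37% of all genes higher in light polysomes. Without shNSi culture 1, 8 members and 9.9% of all genes were lower in heavy polysomes, and 0 and 0.0246% were higher in light polysomes. Without shNSi culture 2, 7 members and 7.58% of all genes were lower in heavy polysomes, and 3 and 5% were higher in light polysomes. Without shDAP5 culture 1 or culture 2, 2 members were higher in light polysomes, and 2.81% or 2.8% of all genes.

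In the moderate pool of the shNSi cultures 3 of 36 members (HIST1H2BC, HIST1H2BJ and HIST1H2BK, all H2B) were lower than in total mRNA, where 5.92% of all genes were lower, 1.46% higher and 7.38% either. Without TMM scaling 4 members and 7.9% of all genes were lower and 0.493% of all genes higher, and with DESeq2 4 members and 7.13% lower and 5.09% higher. The median was −0.57 against −0.02. The 2 moderate libraries were unlike each other. Summed over members they had 104.2 and 29.2 CPM, and HIST1H1C had 947 counts in one and 153 in the other. In culture 1 the moderate sum was 2.31 times the heavy sum, and in culture 2 it was 0.980 times it. Without shNSi culture 2, 0 members and 4.9% of all genes were lower. Without any other culture, or without the terms for each culture (no replicate block), the comparison called 0 of all 16235 genes.

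**Figure D2:**
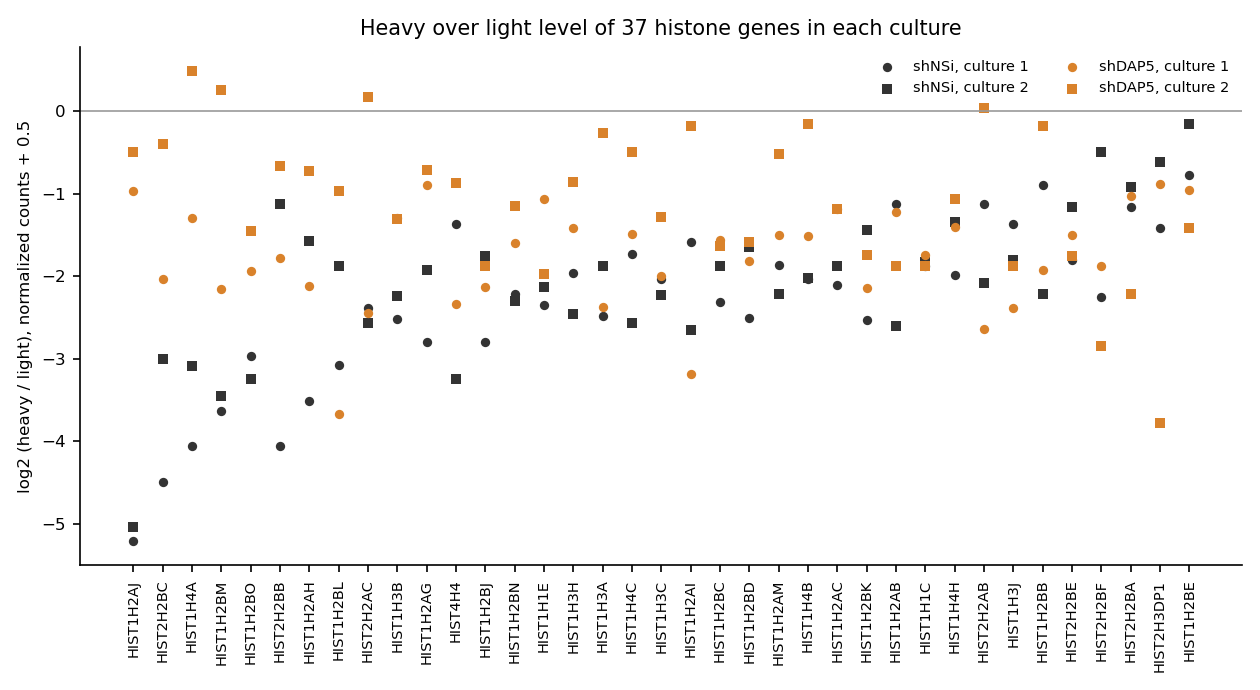
The log2 ratio of heavy to light polysome level of each of the 37 members in each of the 4 cultures, from normalized counts with 0.5 added, ordered by the shNSi mean. Of the 37, 33 lie below 0 in all 4 cultures, where 32.9% of all genes tested do, and in 16 both shNSi cultures (dark) lie below both shDAP5 cultures (orange), where 23.3% of all genes tested do. Of the 9 members with at least 10 counts in every library 3 show this second pattern. Members of few reads could pass the reporting rule through the light libraries, where they were high.

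With the shDAP5 light libraries taken as light, as their title says, the fitted heavy over light change was higher in shDAP5 than in shNSi cultures in 30 of 36 members. It was higher in 48.2% of all genes, a share that counts direction and not nearness to 0. Other genes over 300 and up to 450 bases of coding length had medians of −1.84 in shNSi and −1.05 in shDAP5 cultures. Those over 4500 bases had 1.60 and 0.29, so both classes lay nearer 0 in shDAP5 cultures. Only 1 of the 36, HIST1H2AJ, with 0 counts in both shNSi heavy libraries, passed the test of the difference between the lines. Of the 9 members with at least 10 counts in every library, 3 had both shNSi values below both shDAP5 values. The order of the lines also rests on the title. Against the shNSi moderate pool, whose code those libraries carry, the heavy sum of the shNSi cultures was 0.434 and 1.02 of the moderate sum, above the 0.299 and 0.351 of heavy over light in the shDAP5 cultures. Between heavy and light polysomes of the shDAP5 cultures 21 of 36 members were lower and 0 higher, where 22.6% of all genes were lower, 24.6% higher and 47.1% either, with a median log2 change of −1.38 against 0.00. Without TMM scaling 25 members and 28.8% of all genes were lower, and 17.7% of all genes higher. Here, too, a member of few reads could enter the test through the light libraries, where it was high. HIST1H2BK had 72.7 and 47.7 CPM in light and 16.5 and 14.3 in heavy polysomes, a log2 change of −1.93 (standard error 0.31, adjusted p = 9.55e-05, edgeR quasi-likelihood test). HIST1H1C changed by −1.81 and HIST1H2BD by −1.71, with shNSi values of −1.86 and −2.11. HIST1H2AC, at 25.2 and 14.6 CPM in light and 11.1 and 6.4 in heavy polysomes, changed by −1.19 (standard error 0.27).

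By family, 10 of 15 H2B, 5 of 6 H3, 2 of 8 H2A and 2 of 5 H4 genes and both linker genes were lower in heavy than in light polysomes of the shDAP5 cultures, where 22.6% of all genes were. The difference between families was not tested. The most negative changes that passed the test were those of HIST1H2BL (−2.31), HIST1H3J (−2.24) and HIST2H2BF (−2.23), with standard errors of 0.79, 0.59 and 0.53. The HIST1H2BL value rests on 1 and 4 counts in the heavy libraries. When shDAP5 culture 1 or culture 2 was left out, 10 or 11 members were lower, and 9.85% or 9.5% of all genes.

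In light polysomes of the shDAP5 cultures 10 of 36 members were higher than in total mRNA, where 11.1% of all genes were higher, 15.3% lower and 26.4% either, with a median of 0.89 against 0.07. They included both linker genes, HIST1H2BJ, HIST1H2BK and HIST1H4H. The largest changes were those of HIST1H3J (1.78, standard error 0.54), HIST1H2BN (1.40, standard error 0.39) and HIST1H4B (1.27, standard error 0.44). With the offset for coding length 0 of 32 members were higher, where 3776 of 12747 genes were called in either direction. Between heavy polysomes and total mRNA of the shDAP5 cultures 0 of 36 members were called by edgeR and 0 by DESeq2 (which gave no adjusted p for 8), 6 had an unadjusted p under 0.05, and 0.326% of all genes were called lower. The median there was −0.55 against 0.04. Without the terms for each culture (no replicate block) 0 members and 0.413% of all genes were higher in light polysomes. Without shDAP5 culture 1, and likewise without culture 2, that comparison called 0 of all 16235 genes, so the members could not be assessed.

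Total histone mRNA was compared between the lines next. In total mRNA 0 of 26 members tested differed between shDAP5 and shNSi cultures by the edgeR quasi-likelihood test, DESeq2 (no adjusted p for 9) or limma, and 4 had an unadjusted p under 0.05. Of all genes 0.0867% were called higher, 0.267% lower and 0.354% either. The median log2 change was 0.25 against 0.01. HIST1H2BK had 39.3 and 21.2 CPM in shDAP5 cultures and 40.8 and 29.2 in shNSi cultures (log2 change −0.18, standard error 0.30). HIST1H1C had 31.5 and 22.7 CPM in shDAP5 cultures and 26 and 18.1 in shNSi cultures (log2 change 0.32, standard error 0.25). HIST2H2BE had 4.87 and 4.42 CPM in shDAP5 cultures and 3.09 and 2.31 in shNSi cultures, which did not overlap, and its change of 0.81 (standard error 0.33) had an adjusted p of 0.326 by the same edgeR test.

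In light polysomes 0 of 36 members differed between the lines by edgeR, DESeq2 (no adjusted p for 14) or limma, 0 had an unadjusted p under 0.05, and 0% of all genes were called by edgeR. The median was 0.34 against −0.01. Without shNSi culture 1, 7 members and 12.6% of all genes were higher. With the shNSi moderate pool as the control for the shDAP5 light libraries, the pool whose code they carry, 15 of 34 members and 12.6% of all genes were higher, with medians of 1.71 and −0.01.

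In heavy polysomes 10 of 20 members tested were higher in shDAP5 than in shNSi cultures and 0 were lower (edgeR quasi-likelihood test, adjusted p under 0.05), where 14.2% of all genes were higher, 16.7% lower and 30.9% either. Without TMM scaling 10 members and 17.5% of all genes were higher, and 8% of all genes lower. They were both linker genes, 4 H2A genes (HIST1H2AC, HIST1H2AG, HIST1H2AJ and HIST2H2AC), 1 H2B gene (HIST1H2BO), 2 H3 genes (HIST1H3B and HIST1H3H) and HIST1H4B. A member of few reads could enter this test through the group where it was high. Of the 9 members with at least 10 counts in every library, which did not depend on that, 3 were higher (HIST1H1C, HIST1H1E and HIST1H2AC), and their median was 0.83 against 0.09 over all genes. Both shDAP5 values lay above both shNSi values in 6 of these 9, where 29% of all genes tested did.

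HIST1H2AC had 11.1 and 6.4 CPM in heavy polysomes of the shDAP5 cultures and 5.60 and 2.46 in those of the shNSi cultures. Its log2 change was 1.29 (standard error 0.40, adjusted p = 0.00889, edgeR quasi-likelihood test). HIST1H1E had 2.73 and 1.5 CPM against 0.653 and 0.995 (log2 change 1.54, standard error 0.52, adjusted p = 0.0157, same test). HIST1H1C had 17.2 and 11.2 CPM against 11.5 and 4.88, and although its change of 0.96 passed the test (standard error 0.37, adjusted p = 0.0349), the groups overlapped.

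HIST2H2AC had 0.560 and 2.12 CPM in heavy polysomes of the shDAP5 cultures against 0.233 and 0.332 in those of the shNSi cultures, a log2 change of 2.41 (standard error 0.63). The shDAP5 cultures differed from each other by more than the lower of them differed from the shNSi cultures. Without shDAP5 culture 2 the change was 1.14 (adjusted p = 0.398, edgeR quasi-likelihood test). HIST1H2BO had 0.595 and 0.463 CPM against 0.187 and 0.0947 (log2 change 2.05, standard error 0.76), from 17 and 12 counts against 4 and 2. HIST1H2AJ had 12 and 19 counts against 0 and 0, a level at least 4.09-fold higher at a floor of 3 counts per library. As most of its sequence is shared with HIST1H2AI, which had 2 and 11 counts against 3 and 2, the split of reads between the pair is uncertain.

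HIST1H3B had 1.08 and 0.81 CPM against 0.28 and 0.426 (log2 change 1.60, standard error 0.62), HIST1H3H 1.19 and 1.58 against 0.746 and 0.237 (1.66, standard error 0.58), and HIST1H4B 0.525 and 0.926 against 0.28 and 0.237 (1.65, standard error 0.67). None of the 3 had groups that overlapped. Of the 8 H2B genes tested 7 did not pass. HIST1H2BK had 16.5 and 14.3 CPM in heavy polysomes of the shDAP5 cultures against 14.7 and 10.7 in those of the shNSi cultures, with a log2 change of 0.46 (standard error 0.35, adjusted p = 0.318, edgeR quasi-likelihood test). HIST1H2BD changed by 0.83 (standard error 0.43, adjusted p = 0.127) and HIST1H2BC by 0.42 (standard error 0.57, adjusted p = 0.602).

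These 10 calls depended on the setting. Without shDAP5 culture 2 the number was 0, where 0.75% of all genes were higher, and without shDAP5 culture 1 it was 2, where 8.25% were. Without shNSi culture 1 it was 6 (8.37% of all genes), and without shNSi culture 2 it was 4 (6.73%). DESeq2 called 2, where 10.2% of all genes were higher, and gave no adjusted p for 7 of the 20. With limma on quantile-normalized values 1 was higher, where 12.9% of all genes were. With the shNSi heavy and moderate counts summed as the control, 0 of 24 and 0.553% of all genes were higher. The offset for coding length is given below.

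**Figure D3:**
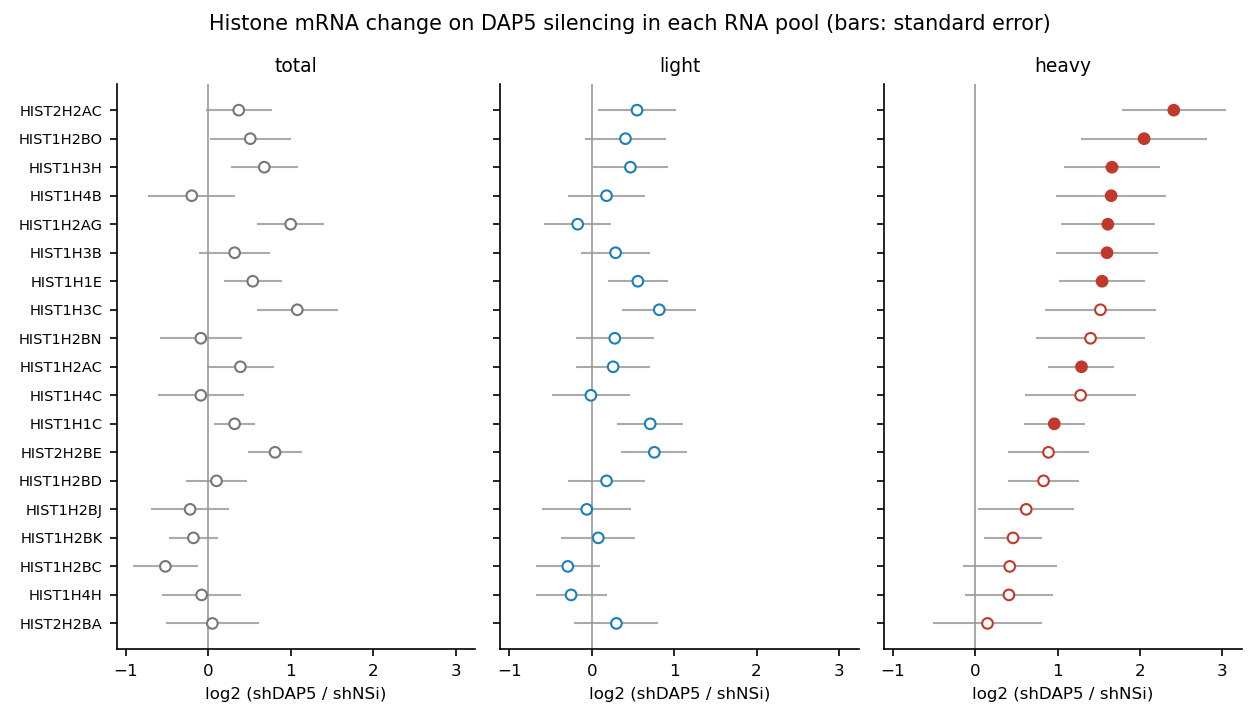
The log2 change between shDAP5 and shNSi cultures (horizontal axis) of the 19 members tested in heavy polysomes that had reads in both groups, in total mRNA, light polysomes and heavy polysomes, with bars for the standard error. Filled points passed an adjusted p of 0.05, which 9 of those shown did in heavy polysomes and 0 in the other pools.

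Heavy translation efficiency, the heavy polysome change after division by the change in total mRNA, passed the test in 1 of 29 members, HIST1H2AJ, where 4.85% of all genes were higher, 8.23% lower and 13.1% either. HIST1H2AJ entered this test through the shDAP5 heavy libraries, where it was high, so its pass is a description. Of all genes DESeq2 called 3.57% higher and 9.65% lower, limma 1.57% and 1.09%, and the test without TMM scaling 0% in either direction. The median of the 9 members with at least 10 counts in every library was 0.75 against 0.09, and 5 of the 29 had an unadjusted p under 0.05. Without shDAP5 culture 1, 5 members and 13.5% of all genes were higher. Without each of the other cultures 0 members were, in fits that called 0 to 22 genes higher of 15374. In light translation efficiency 0 of 36 members passed by edgeR, DESeq2 or limma, 1 had an unadjusted p under 0.05, 0% of all genes passed, and the median was −0.01 against 0.01. With the shNSi moderate pool as control 12 of 33 members and 13.8% of all genes were higher in light translation efficiency. Without shNSi culture 1, 2 members and 4.53% of all genes were.

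Whether the step from light to heavy polysomes differed between the lines was tested directly as an interaction. Of 36 members 1 passed, HIST1H2AJ, where 4.7% of all genes were higher, 12.4% lower and 17.1% either, and the median was 0.85 against −0.04 (7 members had an unadjusted p under 0.05). Without TMM scaling 1 member passed, and 10.8% of all genes were higher and 5.53% lower. This test, too, takes the shDAP5 light libraries as light. Without shDAP5 culture 1 the number was 2, where 3.66% of all genes were higher. Without shDAP5 culture 2 or shNSi culture 2 the fit called 0 of all 16235 genes. The median was 0.23 for the 6 known polyadenylated members and 1.01 for the 30 others, or 0.93 without the 3 at 0. For HIST1H2BK the difference was 0.05 (standard error 0.43), for HIST1H1C 0.06 (standard error 0.44), for HIST1H2AC 0.82 (standard error 0.39, adjusted p = 0.157, edgeR quasi-likelihood test) and for HIST1H1E 0.76 (standard error 0.55).

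Coding length moved with these changes. In shNSi cultures the other 504 genes with a coding length over 300 and up to 450 bases had a median log2 change from light to heavy polysomes of −1.84, with quartiles of −2.19 and −1.44, and the 739 genes over 4500 bases a median of 1.60. In shDAP5 cultures the medians were −1.05 and 0.29. Of 32 members with a coding length, 26 lay below the median of their length class in shNSi cultures and 19 below its first quartile, and in shDAP5 cultures 23 and 15 did. Of the 9 members with at least 10 counts in every library these numbers were 7 and 3 in shNSi cultures and 9 and 7 in shDAP5 cultures. In heavy polysomes, shDAP5 against shNSi, the 468 other genes of 300 to 450 bases had a median of 1.06. Of 19 members with a coding length 13 were not below the median of their class there and 11 lay above its last quartile, but members of few reads could enter through the group where they were high. Of the 9 with at least 10 counts in every library 6 lay below the median of their class, 4 below its first quartile and 2 above its last quartile.

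Both linker genes lay below the first quartile of their length class. The 1739 other genes of 600 to 900 bases had a median of −0.71 and a first quartile of −1.26 in shNSi cultures, and HIST1H1C (639 bases) and HIST1H1E (657 bases) were at −1.86 and −2.26. In shDAP5 cultures that class had a median of −0.10 and a first quartile of −0.67, and the linker genes were at −1.81 and −1.50.

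With an offset for coding length fitted in each library, 4 of 32 members were lower in heavy than in light polysomes of the shNSi cultures (HIST1H1C, HIST1H1E, HIST1H2AJ and HIST1H2BO), where 28% of all genes were lower, so the members' share was under that of all genes. Their median was −0.63 against −0.03. In the shDAP5 cultures 6 of 32 were lower (HIST1H1C, HIST1H1E, HIST1H2BD, HIST1H2BJ, HIST1H2BK and HIST2H2BF), where 22.5% of all genes were, with a median of −0.39. HIST1H1C changed by −0.95 in shNSi and −1.50 in shDAP5 cultures under this offset (standard errors 0.26 and 0.25). Between the lines in heavy polysomes 1 of 19, HIST1H2AJ, was higher under the offset, where 4.94% of all genes were, and it entered that test through the shDAP5 libraries, where it was high. In heavy translation efficiency 0 of 27 passed, where 1.74% of all genes were higher.

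**Figure D4:**
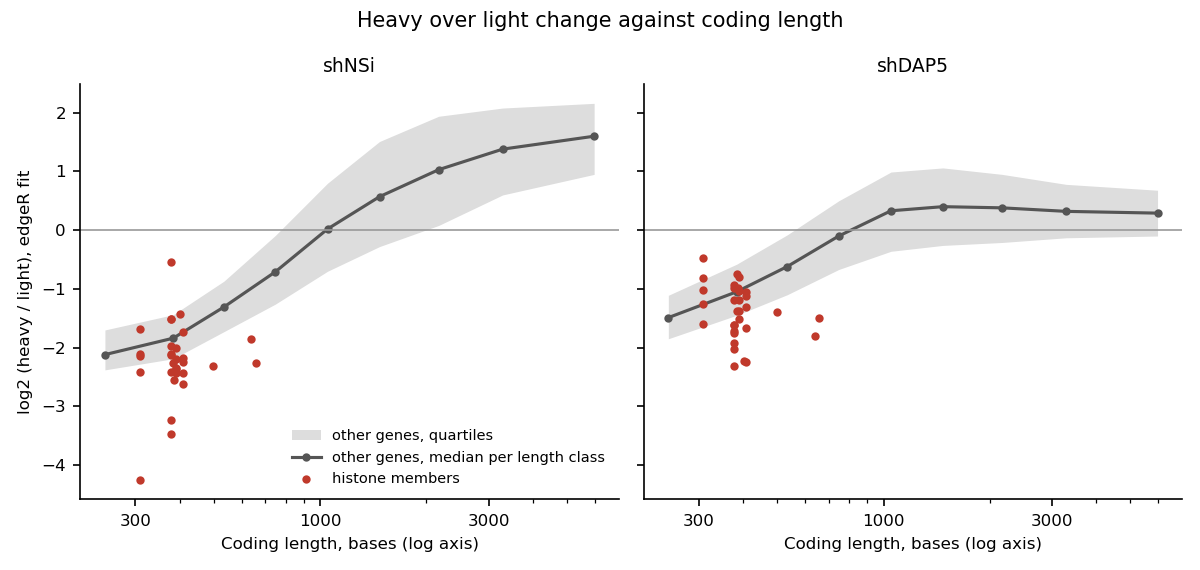
The log2 change from light to heavy polysomes against coding length in bases (log axis) in shNSi and shDAP5 cultures. The line gives the median and the grey band the quartiles of other genes in 9 length classes, and red points are members with reads in both groups, most of which lie below the median of their class.

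Of 18 genes for histone mRNA processing and decay, 13 were higher in heavy than in light polysomes of the shNSi cultures, where 34.7% of all genes were, among them UPF1, the helicase of histone mRNA decay (log2 change 2.82, standard error 0.26), and CPSF3, the endonuclease that cleaves the 3′ end (2.75, standard error 0.26). The 3 lower ones were LSM10, a protein of the U7 particle (−1.93), MIF4GD, a partner of SLBP (−1.77), and ZNF473 (−0.55). The median coding length of this list was 2199 bases. With the coding length offset 8 of 16 were higher and 3 lower, where 7403 of 12747 genes were called in either direction. Without TMM scaling 9 of 18 were higher and 3 lower, where 11221 of 16235 genes were called. SLBP had 77.4 and 141.8 CPM in light and 152.2 and 86.2 in heavy polysomes, and its groups overlapped. In heavy polysomes of shDAP5 against shNSi cultures 9 of the 18 were lower, where 16.7% of all genes were, and 1, MIF4GD (1.31, standard error 0.35), was higher, where 14.2% were. Without shDAP5 culture 2, or with the shNSi heavy and moderate counts summed, 0 were lower, where 1.49% and 2.22% of all genes were. Without shNSi culture 2, 4 were lower (8.75% of all genes), without TMM scaling 5 of 18 (8%), and with the coding length offset 3 of 16 (7.23%). SLBP changed by 0.44 there (standard error 0.33, adjusted p = 0.313, edgeR quasi-likelihood test), and 0 of the 18 differed in total mRNA, where 1 had an unadjusted p under 0.05.

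Replacement and variant histones, which can take the place of the replication-dependent ones in chromatin, were also tested. Of 10 tested, 7 were lower in heavy than in light polysomes of the shNSi cultures, where 30.5% of all genes were, with a median of −1.51. The other call was H2AFY, which was higher (0.88, standard error 0.35), although its groups overlapped. Its log2 ratio was 1.85 in shNSi culture 1 and −0.10 in culture 2. Without TMM scaling, or without the terms for each culture, 0 were higher, where 11221 and 8997 of 16235 genes were called in either direction. H2AFZ, which encodes H2A.Z, had 1816 and 1284 CPM in light and 363.8 and 391.5 in heavy polysomes, a log2 change of −2.01 (standard error 0.34). In heavy polysomes of shDAP5 against shNSi cultures 7 of the 10 were higher, where 14.2% of all genes were, with a median of 1.17. Without shDAP5 culture 2 the number was 1 (0.75% of all genes), without shNSi culture 2 it was 4 (6.73%), and against the sum of the shNSi heavy and moderate pools it was 0 (0.553%). These genes have a median coding length of 424 bases. With the coding length offset 0 of 10 were higher between the lines, where 1478 of 12139 genes were called in either direction. Between heavy and light polysomes of the shNSi cultures 2 of 10 were higher and 1 lower under the offset, where 7403 of 12747 genes were called in either direction. In heavy polysomes between the lines, without the offset, H3F3A, one of the genes for H3.3, changed by 1.10 (standard error 0.35, adjusted p = 0.0091, edgeR quasi-likelihood test). H2AFZ changed by 1.31 there (standard error 0.37).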

How the data were processed

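RNA from MDA-MB-231 cultures was sequenced as single reads, and the authors deposited whole-number read counts per gene symbol without normalization. STAR 2.6.0a and build hg19 are listed in the submitters' processing notes, the deposited table is named for featureCounts, and its settings are not given in the sources used here. Members and gene lists were chosen with earlier results of these data known. The main tool was edgeR 4.0.16 under R 4.3.3: filterByExpr, TMM factors and a robust quasi-likelihood fit (Benjamini-Hochberg over all genes tested, threshold 0.05). Each line comparison used 1 fit of 4 libraries, translation efficiency 8 libraries with culture terms, and comparisons of fractions 1 fit of all 14 with culture terms. Scripts were tested on simulated data. Positions, coding lengths and stem-loops came from GENCODE v29 (GRCh38) by symbol. Named were the 12 members of highest mean CPM, linker genes, known polyadenylated members, up to 3 largest rises and falls per comparison that passed the test without overlap of the groups, and EIF4G2. HIST1H2AI, HIST1H2BE, HIST1H3B, list genes and members that complete a count were named after their values were seen. Alternatives were DESeq2 1.42.0, limma 3.58.1 on quantile-normalized log2(CPM + 1), no TMM, other filters, a coding length offset, other control pools, cultures left out and the replicate block. Culture numbers come from the titles. Same-numbered cultures of the 2 lines correlated in their deviations at −0.088 (total), 0.047 (heavy) and 0.036 (light), and nothing else pairs the lines. Pools of 1 culture correlated at 0.528 and 0.459 (shNSi total with light and heavy) and 0.356 and 0.068 (shDAP5). Each group had 2 cultures, which limits every comparison, and floors of 3 counts cover counting error only.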

Additional observations from a re-analysis of the deposited data

Results flagged for a closer look

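HIST1H2AJ was the only member that passed the tests of heavy translation efficiency and of heavy over light between the lines (edgeR quasi-likelihood test). It entered the first of these through the shDAP5 heavy libraries, where it was high, so that pass is a description. Its heavy translation efficiency was at least 2.26-fold higher in shDAP5 than in shNSi cultures, and its heavy over light level at least 3.49-fold higher, with the shNSi heavy libraries, both at 0, set to 3 counts each. The adjusted p-values were 0.0202 and 0.00667. It had 0 and 0 counts in shNSi heavy and 12 and 19 in shDAP5 heavy libraries, and 83.7% of its 50-base windows occur in another gene.

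After TMM scaling HIST1H2BE went opposite ways in the lines. Its log2 ratio of heavy polysomes to total mRNA was 0.35 and 0.07 in the shNSi cultures and −0.67 and −0.71 in the shDAP5 cultures, a difference of means of −0.90. The test of this difference is that of heavy translation efficiency, where the fitted value of −0.78 (standard error 0.88, adjusted p = 0.587, edgeR quasi-likelihood test) did not pass. The counts behind it were 5 to 21 per library. In the shNSi cultures they were 10 and 9 in total mRNA and 9 and 7 in heavy polysomes, whose library totals were larger. The positive sign in the shNSi cultures thus rests on the TMM factors of the heavy libraries (0.763 and 0.703). In the shDAP5 cultures the counts were 21 and 10 in total mRNA and 13 and 5 in heavy polysomes. Groups of 2 cultures are too small to single out a culture that stands apart from its group.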

How the results depend on the processing

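Values are numbers of members past an adjusted p of 0.05, and percentages in parentheses are the share of all genes tested that passed in the same direction. No count changed direction, 240 stayed within 1.5 times the value given, 50 fell below and 12 rose above that. With DESeq2 the heavy count was 2 (10.2%), heavy translation efficiency 0 (3.57%) and the interaction of heavy over light with the line 0 (7.19%), with no adjusted p for 7 of 20, 25 of 29 and 20 of 36 members, so these counts rest on fewer members. With at least 10 counts in every library, where fewer genes and 9 members are tested, heavy was 3 (16%), shNSi heavy over total 8 (18.6%), shNSi light over total 3 (10.9%), shNSi heavy over light 9 (33.6%), shDAP5 heavy over light 9 (24.4%) and the interaction 0 (7.26%). With the coding length offset heavy was 1 (4.94%), heavy translation efficiency 0 (1.74%), shNSi heavy over total 2 (10.6%), light over total 0 (8.17%), heavy over light 4 (28%), shDAP5 light over total 0 (13.1%) and heavy over light 6 (22.5%). The offset turned HIST2H2BE to 0.19 and HIST1H4H to 0.25 in shNSi heavy over light, neither past the threshold. Without TMM heavy translation efficiency was 0 (0%). Leaving that scaling out moved the median of all genes from −0.03 to −0.60 in shNSi heavy over light. In heavy polysomes between the lines it moved the median from 0.09 to 0.34. There 45.9% of all calls were higher as reported, 36.5% with DESeq2 and 68.7% without TMM. Of the calls over all genes without TMM 19.3% were higher in shNSi heavy over total (64.9% as reported) and 66.1% in the interaction (27.5% as reported). With limma heavy was 1 (12.9%) and heavy translation efficiency 0 (1.57%). Without a filter heavy was 6 (5.35%), shDAP5 heavy over total 2 (0.916%) and the interaction 2 (3.69%). With shNSi heavy and moderate counts summed heavy was 0 (0.553%) and heavy translation efficiency 0 (0%). With the moderate pool as control light was 15 (12.6%) and light translation efficiency 12 (13.8%).

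Without terms for each culture (no replicate block) shNSi heavy over total was 4 (7.64%), moderate over total 0 (0%), light over total 0 (0.37%) and shDAP5 light over total 0 (0.413%), and without these terms heavy translation efficiency was 0 (0%). With a replicate block across the lines, which have only culture numbers in common, heavy was 9 (15.6%) and heavy translation efficiency 1 (1.1%), and total, light and light translation efficiency stayed at 0. Only these 5 comparisons between the lines were run with it. With the pairing crossed, chosen after seeing the data, heavy translation efficiency was 3 (11.4%). Without the moderate pools, also chosen then, the interaction was 2 (6.83%).

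With each culture left out in turn, heavy ranged from 0 to 6, light from 0 to 7, heavy translation efficiency from 0 to 5, light translation efficiency from 0 to 2, shNSi heavy over total from 7 to 13, moderate over total 0 to 0, light over total from 0 to 3, shDAP5 heavy over total from 0 to 1, shDAP5 light over total from 0 to 11, shDAP5 heavy over light from 10 to 22 and the interaction from 0 to 2. Several of these fits called 0 of all genes, and a 0 there, as beside each 0% above, says nothing about the members. The fits also differed widely in how many of all genes they called, so no range here can be read as specific to the members. In these fits the lone culture is taken to vary as the others. The cause of these shifts was not tested. Only 9 members had at least 10 counts in every library, which limits what the depth can show.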

Other observations

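The members are made in S phase, and other genes of that phase were tested across the same gradient. Of 16 such genes (the MCM helicase subunits, RRM1 and RRM2 of ribonucleotide reductase, cyclins and others), 11 were higher in heavy than in light polysomes of the shNSi cultures and 1, E2F1, was lower (edgeR quasi-likelihood test, adjusted p under 0.05), with a median log2 change of 1.91, where 34.7% of all genes were higher. Their coding length was 783 to 2712 bases, longer than that of the members, and with the coding length offset 13 were higher and 1 lower. In shNSi culture 2 alone PCNA (−0.92), TYMS (−0.27), CCNE1 (−0.51) and CDK2 (−0.18) were below 0, and without shNSi culture 1 the numbers were 9 and 2. MCM6 changed by 3.47 (standard error 0.35) and RRM1 by 3.30 (standard error 0.31). In heavy polysomes of shDAP5 against shNSi cultures 8 of the 16 were lower and 0 higher, where 16.7% of all genes were lower, with a median of −0.77. Without shDAP5 culture 2, or with the shNSi heavy and moderate counts summed, 0 were lower, where 1.49% and 2.22% of all genes were, and with the coding length offset 5 were (7.23%). In total mRNA 0 of the 16 differed, 2 had an unadjusted p under 0.05, and the median was −0.07. The summed level of these genes in total mRNA was 3017 and 3373 CPM in shNSi and 2644 and 3159 CPM in shDAP5 cultures, so the groups overlapped.

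Of 5 histone chaperones, 3 (CHAF1A, CHAF1B and NASP) were higher in heavy than in light polysomes of the shNSi cultures, where 34.7% of all genes were. In heavy polysomes of shDAP5 against shNSi cultures, where 14.2% of all genes were higher and 16.7% lower, ASF1A was higher by 1.01 (standard error 0.34) and CHAF1B lower by a log2 change of −0.88 (standard error 0.33), both past the adjusted threshold. Without shDAP5 culture 1, shDAP5 culture 2 or shNSi culture 2, and with the coding length offset, 0 of the 5 were called there.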
